A study of Mus musculus with 6 samples.

Results

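Integrins and their adhesion ligands were described in cerebellar RNA of N153SLSL/LSLPcp2-cre mice and N153SLSL/LSL control mice. The 10 genes were chosen by symbol: the leukocyte integrin subunits *Itgam*, *Itgal* and *Itgb2*, the subunits *Itgav*, *Itgb5*, *Itga4*, *Itga6* and *Itgb1*, and the ligands *Icam1* and *Vcam1*. All 10 were found among the 53746 genes of the count table, and all 10 passed the filter on low counts, as did 16961 genes in all. Both groups carry the *Sting1* N153S allele on both chromosomes behind a LoxP-Stop-LoxP cassette, and the Pcp2-cre mice also carry a transgene in which the Purkinje cell promoter of *Pcp2* drives Cre. There were 3 mice of each genotype, all 2 months old, mice 1 and 2 of each genotype being male and mouse 3 female. Poly A RNA of whole cerebella from PBS-perfused mice was sequenced, so more cells of a type and more RNA per cell cannot be told apart in these values.

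Integrins are heterodimers of an α and a β subunit that span the plasma membrane and bind matrix proteins or receptors on other cells. The β2 subunit is made by leukocytes, microglia included. With αM (*Itgam*) it forms complement receptor 3, which takes up complement-coated material, and with αL (*Itgal*) a receptor for ICAM-1. The β1 subunit is found on nearly all cells, where α4β1 binds VCAM-1 and α6β1 binds laminin, and αvβ5 binds vitronectin and takes part in phagocytosis. ICAM-1 and VCAM-1 are immunoglobulin-like proteins that inflamed endothelium and glia display to passing leukocytes.

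Total counts per mouse lay between 6733178 and 10178218, at which a floor of 3 counts came to 0.297 to 0.447 CPM (counts scaled to library size by TMM). Such floors cover counting error only. *Sting1*, the engineered gene, was higher in every Pcp2-cre mouse, with log2FC 0.57 (SE 0.0969, padj = 3.59e-04, edgeR). Here and in what follows, log2FC is the log2 ratio of Pcp2-cre to control with its standard error (SE), and padj is the Benjamini-Hochberg adjusted p-value given by the quasi-likelihood test in edgeR. The counts do not tell mutant from normal *Sting1* transcripts. Purkinje cell markers were abundant in all mice, 8 of them summing to 6240 to 6790 CPM in control and 3350 to 3700 CPM in Pcp2-cre mice. Choroid plexus genes stood apart in controls 1 and 2, where the mean log2 CPM of 4 of them was 6.21 and 6.61 against 1.85 to 3.39 in the other 4 mice. A gene was called where padj was 0.05 or less and log2FC 0.5 or more in size. Of the 10 genes, *Itgb2*, *Itgam* and *Icam1*, that is 3, were called higher in Pcp2-cre cerebella, and *Itgav* alone had a negative log2FC. Over all genes tested 1.37% were called higher and 1.79% lower, 3.17% in all. The median log2FC of the 10 genes was 0.22, against 0.00 over all genes tested.

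**Figure D1:**
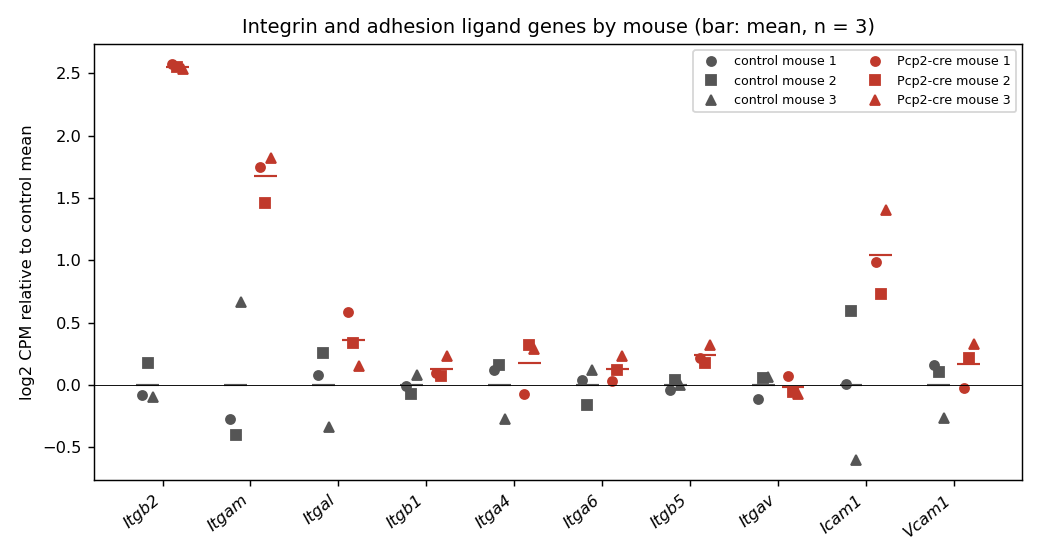
Log2 CPM of each of the 10 genes in each mouse, relative to the mean of the 3 control mice, with a bar at the mean of each genotype. The *Itgb2* and *Itgam* points of all 3 Pcp2-cre mice lie well above the controls, those of *Icam1* lie at 0.728 to 1.401 with control 2 at 0.596, and those of the other genes lie between -0.074 and 0.586.

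The promoters of the called genes are shown where RefSeq supplied them, that is for *Itgam* and *Icam1*. The activity of factors at these promoters was not measured. RefSeq promoters (build GRCm38.p6) were matched for 6 of the 10 genes. Those of *Itgal*, *Itgb2*, *Itga6* and *Vcam1* were not matched. The 250 bases before the start are printed 5′ to 3′ on the forward strand, chr7:128062390-128062639 for *Itgam* and chr9:21015690-21015939 for *Icam1*. Capitals mark GAGGAA, the core bound by the myeloid factor PU.1, in *Itgam* and GGNNNTTCC, a form of the NF-κB site, in *Icam1*, each searched on both strands.
Itgam: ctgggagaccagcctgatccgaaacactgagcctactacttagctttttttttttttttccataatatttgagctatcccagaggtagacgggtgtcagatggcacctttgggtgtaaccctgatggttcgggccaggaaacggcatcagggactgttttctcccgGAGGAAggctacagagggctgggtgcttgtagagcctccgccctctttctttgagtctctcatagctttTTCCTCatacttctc
Icam1: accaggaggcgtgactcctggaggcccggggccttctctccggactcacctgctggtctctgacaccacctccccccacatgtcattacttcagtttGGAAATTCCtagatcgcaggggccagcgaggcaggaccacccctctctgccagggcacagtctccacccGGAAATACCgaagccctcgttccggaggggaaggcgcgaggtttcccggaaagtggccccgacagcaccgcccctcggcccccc

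In *Itgam*, GAGGAA begins at base -84 on the forward strand and its reverse complement at base -15, counted back from the start. In *Icam1*, GGNNNTTCC matched at base -153 on both strands, where the letters on each strand fit the pattern, and at base -84 on the reverse strand. GAGGAA was not found in the *Icam1* window, nor GGNNNTTCC in that of *Itgam*. Genes that were not called held these letters too: the *Itgav* promoter has GAGGAA at 2 places, and that of *Itgb1* has both motifs at 1 place each. The *Itga4* and *Itgb5* windows hold neither. Of 32851 RefSeq promoters, 23.3% hold GAGGAA and 15.7% hold GGNNNTTCC in the same 250 bases, so a match is common and is given as a description.

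Of the β2 integrin genes, *Itgb2* and *Itgam* rose and *Itgal* did not pass the test. *Itgb2* (ENSMUSG00000000290, chromosome 10 of GRCm39, 77366086 to 77401542), the common β2 chain, was counted 12, 12 and 15 times in control mice 1 to 3 and 74, 83 and 64 times in Pcp2-cre mice 1 to 3. In CPM the controls spanned 1.49 to 1.79 and the Pcp2-cre mice 9.47 to 9.75. The mice of each genotype were close to one another and the genotypes did not overlap. *Itgb2* rose from 1.59 ± 0.171 to 9.60 ± 0.140 CPM (SD, n = 3 per genotype), log2FC 2.60 (SE 0.202, padj = 8.64e-09, edgeR). It is among the immune genes that the study selected on these samples, so its direction is not independent evidence.

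*Itgam* (ENSMUSG00000030786, chromosome 7 of GRCm39, 127661808 to 127717753) encodes αM, also called CD11b. It was counted 8, 6 and 20 times in control mice 1 to 3 and 32, 30 and 30 times in Pcp2-cre mice 1 to 3, which is 0.998, 0.893 and 1.98 CPM against 4.21, 3.46 and 4.44 CPM. Control 3 stood above the other controls and below every Pcp2-cre mouse. *Itgam* rose from 1.29 ± 0.600 to 4.04 ± 0.511 CPM (SD, n = 3 per genotype), log2FC 1.55 (SE 0.286, padj = 9.39e-04, edgeR). Without control 3 the log2FC was 2.06. With the choroid plexus score in the model it was 1.13 (padj = 0.0479, edgeR). Only control 3, at 2.48, had a score within the range of the Pcp2-cre mice (1.85 to 3.39). Fits with this score therefore compare the genotypes largely through that control.

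The counts of *Itgam* are uncertain in one respect. In Gencode M39, 3450 of its 5118 exon bases are shared on the same strand with *Gm49368*, a gene annotated as a readthrough, which had at most 1 count in a mouse. How reads in shared exons were counted is not given in the sources used here. The deposited FPKM (fragments scaled to length and library size, as the authors computed them) of *Itgam* per CPM ran from 0.447 to 1.04 between mice, while for *Itgb2* it ran from 0.273 to 0.290. On the FPKM scale control 3 did not stand apart, with 0.628, 0.933 and 0.885 FPKM in the controls against 2.50, 2.41 and 2.53 FPKM in the Pcp2-cre mice.

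*Itgal* (ENSMUSG00000030830, chromosome 7 of GRCm39, 126895432 to 126934320) encodes αL, another partner of β2. It had 2.12, 2.38 and 1.59 CPM in the control mice and 3.03, 2.54 and 2.22 CPM in the Pcp2-cre mice. Pcp2-cre mouse 3 lay below control 2, so the genotypes overlapped in CPM. In FPKM they did not, with 0.212 to 0.293 in control and 0.323 to 0.410 in Pcp2-cre mice (padj = 0.590, limma on log2(FPKM + 1)). In CPM, every Pcp2-cre mouse lay above every control for 10.8% of all genes tested. The like share in FPKM was not determined. In the counts the log2FC of *Itgal* was 0.39 (SE 0.267, padj = 0.502, edgeR).

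The α partners of β2 were set side by side in deposited FPKM, with the other known partners *Itgax* (αX, or CD11c) and *Itgad* (αD) added. *Itgax* is also among the immune genes that the study selected. The FPKM of the 4 partners summed to 1.07, 1.23 and 1.22 in the control mice and to 4.70, 4.43 and 5.18 in the Pcp2-cre mice, while *Itgb2* went from 0.447 ± 0.0532 to 2.69 ± 0.114 FPKM (SD, n = 3 per genotype). The shares hold for FPKM only: in control mice the mean CPM of *Itgam* was 1.29 and that of *Itgal* 2.03, on 5118 and 6579 exon bases. FPKM per CPM ran from 0.447 to 1.04 for *Itgam* and from 0.107 to 0.146 for *Itgal*. *Itgam* held 69.1 ± 9.16% of the summed FPKM in control and 52.2 ± 2.92% in Pcp2-cre cerebella. The share of *Itgal* was 21.8 ± 5.07% and 7.63 ± 1.27%, and that of *Itgax* 4.36 ± 1.88% and 38.7 ± 1.89% (SD, n = 3 per genotype). For *Itgam*, *Itgal* and *Itgax* alike the shares of the genotypes did not overlap. In CPM, genotypes separated upward for 10.8% and downward for 11.4% of all genes tested. As parts of 1 sum the shares are not independent, and a rise of *Itgax* lowers the others. *Itgal* itself went from 0.253 to 0.362 FPKM while its share fell. The shares were not tested. *Itgad* was counted 12, 2 and 4 times in control mice 1 to 3 and 2, 0 and 1 times in Pcp2-cre mice 1 to 3, and did not pass the filter.

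Ratios of counts within a mouse, which do not depend on how libraries are scaled, were computed for 8 pairs. The log2 ratio of *Itgal* to *Itgb2* counts was 0.49, 0.40 and 0.09 in the control mice and -1.66, -1.89 and -2.06 in the Pcp2-cre mice, a difference of -2.20. That of *Itgam* to *Itgb2* was -0.56, -0.94 and 0.40 in the controls and -1.20, -1.45 and -1.08 in the Pcp2-cre mice, a difference of -0.88. Neither pair overlapped, and each had p = 0.10 in a two-sided exact permutation test, the smallest that 3 mice against 3 allow (0.16 after Benjamini-Hochberg adjustment over 8 ratios). No ratio in this design could therefore pass 0.05. The *Itgam* to *Itgb2* difference was -0.49 without control 3 and -1.17 without control 2.

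**Figure D2:**
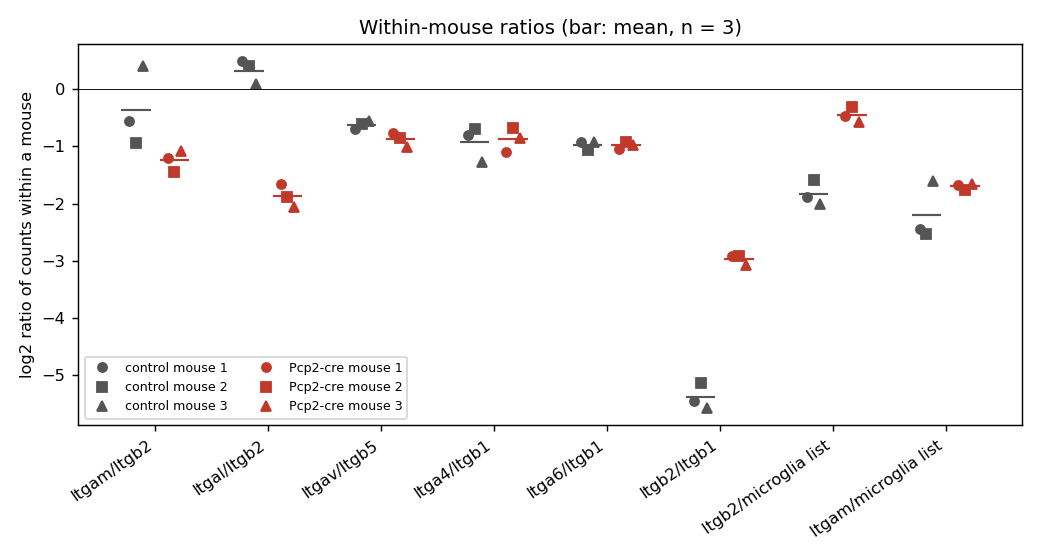
Log2 ratio of counts within each mouse for 8 pairs (vertical axis), with a bar at the mean of each genotype. *Itgb2* over *Itgb1* and *Itgb2* over the mean of 10 microglial genes are higher in every Pcp2-cre mouse, *Itgal* over *Itgb2* is lower in every one, and both *Itgb1* partner ratios overlap.

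The rise of *Itgb2* was also set against 10 microglial marker genes. Their summed level was 108 to 114 CPM in control and 253 to 273 CPM in Pcp2-cre mice, 7 of the 10 were called upregulated, and their median log2FC was 1.14. *P2ry12*, *Tmem119* and *Siglech*, which mark resident microglia, were not called, with log2FC of 0.28, 0.06 and 0.15, and *Csf1r*, *Cx3cr1* and *Aif1* are among the genes that the study selected. The log2 ratio of *Itgb2* to their mean was -1.89, -1.59 and -2.00 in the control mice and -0.47, -0.31 and -0.58 in the Pcp2-cre mice. The difference of 1.37 was without overlap (two-sided exact permutation test, p = 0.10, adjusted p = 0.16). For *Itgam* the same ratio was -2.45, -2.53 and -1.60 against -1.67, -1.76 and -1.66, and the genotypes overlapped (exact permutation p = 0.40, difference 0.49). The part of these markers in the changes of *Itgb2* and *Itgam* was not tested.

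Markers of the other leukocytes that carry β2 integrins were measured too. None of 13 T, B and NK cell genes passed the filter, 9 of them had at most 3 counts in every mouse, and *Cd3g* and *Nkg7* had 0 counts in all. Their summed level was 0.873 to 1.68 CPM in control and 1.98 to 2.65 CPM in Pcp2-cre mice. *Trbc2*, a T cell receptor constant segment, was at 0 in all controls and at 3, 9 and 4 counts in Pcp2-cre mice 1 to 3, and was chosen for mention after its values were seen. Neutrophil genes summed to 1.49 to 3.24 and 1.33 to 4.48 CPM, with *Ly6g* at 0 counts in all mice and *S100a9* at 2 to 18 counts. Monocyte genes summed to 0.447 to 1.87 and 0.888 to 1.85 CPM, with *Ccr2* and *Plac8* at most at 3 counts. Border macrophage genes were present, led by *Mrc1*, and summed to 8.04 to 10.9 and 10.4 to 13.5 CPM. Haemoglobin and other red cell genes, which would mark blood left after perfusion, summed to 14.3 to 63.6 CPM in control and 5.92 to 45.8 CPM in Pcp2-cre mice.

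Of the αv integrin genes, *Itgb5* passed the test with a small fold and *Itgav* did not pass it. *Itgb5* (ENSMUSG00000022817, chromosome 16 of GRCm39, 33649988 to 33771137), the β5 chain, had 81.1, 85.9 and 83.6 CPM in the control mice and 97.2, 94.4 and 104 CPM in the Pcp2-cre mice. Every Pcp2-cre mouse lay above every control. Its log2FC was 0.24 (SE 0.0489, padj = 0.00259, edgeR), below the threshold of 0.5, so it was not called. With limma on log2(FPKM + 1) padj was 0.0738. At any fold size, padj was 0.05 or less for 4 of the 10 genes, all higher, against 2.99% of all genes tested that were higher and 4.75% that were lower. In CPM, every Pcp2-cre mouse lay above every control for the same 4 genes, which held for 10.8% of all genes tested.

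*Itgav* (ENSMUSG00000027087, chromosome 2 of GRCm39, 83554403 to 83637260), the αv chain that pairs with β5, had 50.4, 56.6 and 56.9 CPM in the control mice and 57.4, 52.4 and 51.8 CPM in the Pcp2-cre mice. The genotypes overlapped, with log2FC -0.02 (SE 0.0665, padj = 0.921, edgeR). The log2 ratio of *Itgav* to *Itgb5* was -0.69, -0.60 and -0.56 in the control mice and -0.76, -0.85 and -1.01 in the Pcp2-cre mice, a difference of -0.26 without overlap (two-sided exact permutation test, p = 0.10, adjusted p = 0.16).

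The β1 integrin genes overlapped between genotypes in CPM. *Itgb1* (chromosome 8 of GRCm39, 129411876 to 129460618), the β1 chain, had 65.5 to 72.7 CPM in control and 72.3 to 80.8 CPM in Pcp2-cre mice, log2FC 0.12 (SE 0.0570, padj = 0.260, edgeR). *Itga6* (chromosome 2, 71575960 to 71689757), the laminin-binding α6 chain, had 31.3 to 38.0 and 35.8 to 41.1 CPM, with log2FC 0.11 (SE 0.0817). In FPKM neither overlapped. *Itgb1* had at most 15.4 in control and at least 15.6 in Pcp2-cre mice, and *Itga6* at most 8.59 and at least 8.77. By limma on log2(FPKM + 1), padj was 0.571 and 0.717. The share of all genes that separated in this way in FPKM was not determined. *Itga4* (chromosome 2, 79085660 to 79163467), the VCAM-1-binding α4 chain, had 39.4, 40.5 and 30.0 CPM in the control mice and 34.5, 45.4 and 44.4 CPM in the Pcp2-cre mice. Control 3 and Pcp2-cre mouse 1 were its low samples, and the log2FC was 0.20 (SE 0.107, padj = 0.363, edgeR). With the choroid plexus score in the model the log2FC of *Itga4* was 0.48 (padj = 0.00402, edgeR). That fit rests largely on control 3, the lowest mouse for *Itga4*. Its exons share 3481 bases with *Cerkl* on the opposite strand, which had 148 to 254 counts in a mouse, and without the use of strand such reads cannot be told apart. The log2 ratios of *Itga4* and *Itga6* to *Itgb1* differed by 0.05 and 0.00 between genotypes, with overlap (exact permutation p = 0.80 and 1).

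Among the ligands, *Icam1* was called and *Vcam1* was not. *Icam1* (ENSMUSG00000037405, chromosome 9 of GRCm39, 20926672 to 20940113), the ligand of both β2 integrins described here, was counted 11, 14 and 9 times in control mice 1 to 3 and 21, 20 and 25 times in Pcp2-cre mice 1 to 3. In CPM these were 1.37, 2.08 and 0.892 against 2.77, 2.31 and 3.70. The highest control, mouse 2, lay just below the lowest Pcp2-cre mouse. *Icam1* rose from 1.45 ± 0.600 to 2.92 ± 0.709 CPM (SD, n = 3 per genotype), log2FC 1.05 (SE 0.315, padj = 0.0436, edgeR). DESeq2 gave log2FC 1.04 and did not call it (padj = 0.375), nor did limma on FPKM values or edgeR in males alone (log2FC 0.57). The call was also lost when any mouse but control 2 was left out, with padj of up to 0.231 (edgeR). With the choroid plexus score in the model the log2FC was 1.71 (padj = 0.0107, edgeR). That fit, too, rests largely on control 3, the lowest mouse for *Icam1*. Its exons share 511 bases with *Gm47079* on the opposite strand, which had 3 to 8 counts in a mouse, and its FPKM per CPM ran from 0.242 to 0.488.

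*Vcam1* (ENSMUSG00000027962, chromosome 3 of GRCm39, 115903598 to 115923355), the ligand of α4β1, had 17.6, 16.8 and 13.1 CPM in the control mice and 15.4, 18.2 and 19.7 CPM in the Pcp2-cre mice. The genotypes overlapped, with log2FC 0.18 (SE 0.123, padj = 0.496, edgeR). Among males alone it was -0.03, and with the choroid plexus score in the model 0.46 (padj = 0.0615, edgeR). The latter fit rests largely on control 3, the lowest mouse for *Vcam1*. For 8 markers of endothelium, whose cells can display both ligands, the summed level was 243 to 254 CPM in control and 261 to 268 CPM in Pcp2-cre mice, and log2FC values ran from -0.03 to 0.22. Their part in the *Icam1* values was not tested.

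The genes were also ordered by deposited FPKM, which is not the counts divided by the exon lengths of Gencode M39. In control mice *Itgav* had a higher mean CPM than *Itga6* (54.6 against 35.1) on 12334 and 11382 exon bases, yet ranked below it in FPKM. The order therefore holds for the deposited FPKM only. In FPKM, *Itgb5* led in both genotypes, at 22.0 ± 1.03 FPKM without Cre and 25.8 ± 0.937 FPKM with it (SD, n = 3 per genotype). *Itgb1* followed with 15.1 ± 0.461 and 16.1 ± 0.523 FPKM. Next in both genotypes came *Itga6* (8.42 and 8.85 FPKM), *Itgav* (6.59 and 6.57 FPKM), *Vcam1* (3.75 and 3.85 FPKM) and *Itga4* (2.74 and 2.96 FPKM), and in each genotype none of these overlapped the gene ranked above it. In control cerebella *Itgam* (0.815 ± 0.164 FPKM), *Icam1* (0.517 ± 0.237 FPKM) and *Itgb2* (0.447 ± 0.0532 FPKM) came next, where *Itgam* overlapped *Icam1* and *Icam1* overlapped *Itgb2*, and *Itgal* was lowest at 0.253 ± 0.0406 FPKM. In Pcp2-cre cerebella *Itgb2* at 2.69 FPKM came up to *Itga4*, with which it overlapped. *Itgam* at 2.48 ± 0.0623 FPKM lay just under *Itgb2*, *Icam1* had 0.915 ± 0.169 FPKM and *Itgal* 0.362 ± 0.0445 FPKM. Of the summed FPKM of *Itgb1*, *Itgb2* and *Itgb5*, *Itgb2* held 1.19 ± 0.125% in control and 6.04 ± 0.300% in Pcp2-cre cerebella (SD, n = 3 per genotype).

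**Figure D3:**
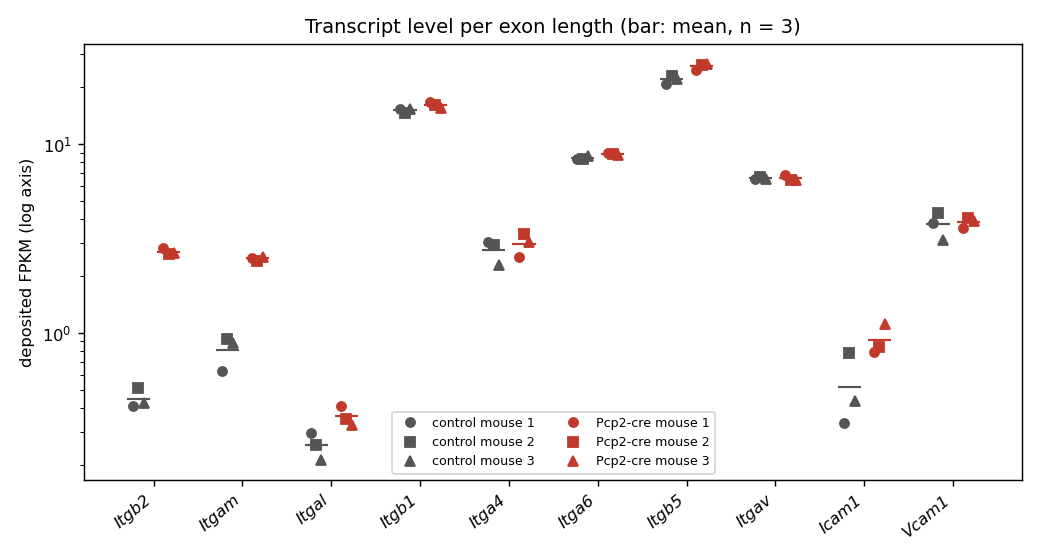
Deposited FPKM of the 10 genes in each mouse on a log axis, with a bar at the mean of each genotype. *Itgb5* and *Itgb1* are highest in all mice, and *Itgb2* and *Itgam* move from under 1 FPKM in the controls to between 2.41 and 2.82 FPKM in the Pcp2-cre mice.

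Genes with a like pattern were sought for the 3 called genes, by the root mean square difference of log2 CPM over the 6 mice after the control mean was set to 0, among 16952 genes of at least 1 CPM. Nearest to *Itgb2* were *Mpeg1* (0.200), *Lyz2* (0.226) and *C1qc* (0.226), with log2FC of 2.75, 2.30 and 2.41. Nearest to *Itgam* were *Ccl9* (0.130), *Tlr7* (0.234) and *Ikzf1* (0.235), with log2FC of 1.57, 1.67 and 1.50. Nearest to *Icam1* were *Unc93b1* (0.235), *Pole2* (0.276) and *Ctsz* (0.284), with log2FC of 0.88, 0.78 and 0.96.

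Of 18 other integrin subunit genes, 14 were tested and *Itgax* alone was called. It was counted 3, 1 and 4 times in control mice 1 to 3 and 59, 79 and 66 times in Pcp2-cre mice 1 to 3, so the controls lay at or near the floor and the log2FC of 4.72 is of uncertain size. The other 13 had log2FC values between -0.50 (*Itga9*) and 0.44 (*Itga11*). *Itga3*, a laminin-binding α chain, had 85.5 ± 3.10 and 75.9 ± 1.55 CPM (SD, n = 3 per genotype), with log2FC -0.18 (padj = 0.0263, edgeR). The list's median log2FC was 0.07.

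**Figure D4:**
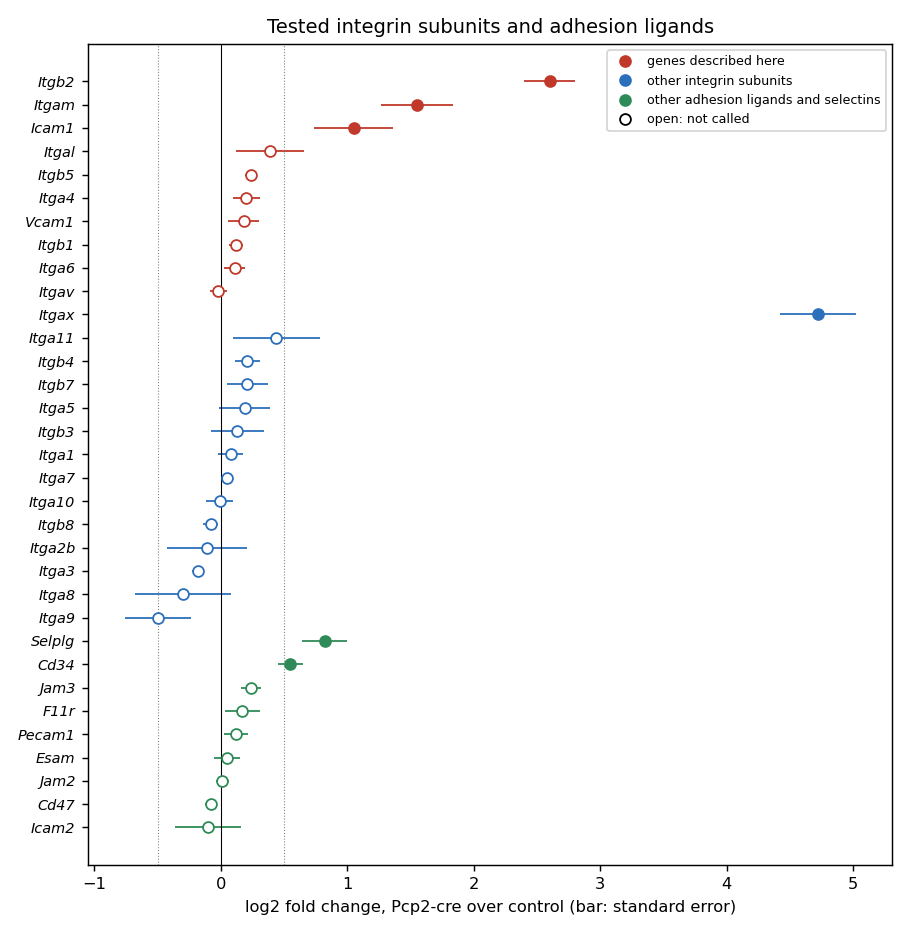
Log2 fold change with its standard error for the tested genes among the 10 genes described here, the other integrin subunits and the other adhesion ligands and selectins. Filled points are called, dotted lines mark log2FC 0.5 in either direction, and apart from *Itgax*, *Itgb2*, *Itgam*, *Icam1*, *Selplg* and *Cd34* every point is open.

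Of 16 other adhesion ligand and selectin genes, 9 were tested and 2 were called upregulated, with a median log2FC of 0.12. *Selplg*, the selectin ligand of leukocytes that microglia also make, had 4.74, 6.70 and 5.65 CPM in control and 9.88, 11.9 and 7.99 CPM in Pcp2-cre mice, log2FC 0.82 (padj = 0.00381, edgeR). *Cd34*, an endothelial and progenitor sialomucin, rose from 15.9 ± 0.280 to 23.4 ± 1.93 CPM (SD, n = 3 per genotype), log2FC 0.55. The endothelial selectins *Selp* and *Sele* were at or under the floor, with at most 3 counts of *Selp* and 0 of *Sele* in any mouse.

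Of 28 genes of integrin activation and adhesion signalling, 25 were tested and 3 were called upregulated. These were *Apbb1ip* (log2FC 2.19), whose product RIAM brings talin to integrins, *Fyb* (2.09), an adaptor of haematopoietic integrin signalling, and *Parvg* (1.08), the haematopoietic parvin. *Apbb1ip* and *Fyb* are among the immune genes that the study selected on these samples. *Skap2* (0.45) and *Parvb* (0.27) passed 0.05 in padj but not the fold threshold. The leukocyte kindlin *Fermt3* had log2FC 0.38 (padj = 0.300, edgeR), and talin 1 (*Tln1*) one of 0.13. Counts and FPKM differed in fold for *Fermt3* and *Fyb*. In FPKM *Fermt3* had 0.665 to 0.862 in control and 1.35 to 1.50 in Pcp2-cre mice, a larger fold than in counts. *Fyb* had 2.08 to 3.46 and 4.46 to 5.57 FPKM, a smaller one. The list's median was 0.07.

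Of 19 matrix and soluble ligand genes, all were tested, 3 were called upregulated and 1 downregulated, with a median log2FC of 0.15. *C3*, whose fragment iC3b is bound by complement receptor 3, was counted 2, 1 and 8 times in control mice 1 to 3 and 23, 33 and 35 times in Pcp2-cre mice 1 to 3, log2FC 3.12 (SE 0.396). *Spp1*, or osteopontin, a ligand of αv and α4 integrins, rose from 15.3 ± 2.74 to 39.0 ± 6.06 CPM (SD, n = 3 per genotype), log2FC 1.31. *Tgfb1*, whose latent form is bound by αv integrins, had log2FC 0.76. *C3* and *Spp1* are also among the immune genes selected by the study. *Tnc*, the matrix protein tenascin C, fell from 28.8 ± 3.55 to 12.3 ± 1.92 CPM, log2FC -1.23 (padj = 2.63e-07, edgeR). The laminin chain *Lamb1* had log2FC -0.46 and vitronectin (*Vtn*) one of 0.21, each with padj under 0.05.

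The comparison was repeated by sex. Among males, 2 against 2, the log2FC was 2.56 for *Itgb2* and 1.99 for *Itgam*, and both calls were kept. Between the single females of each genotype the differences on the log2 scale, given without a test, were 2.64 for *Itgb2* and 1.15 for *Itgam*. For *Icam1* the log2FC was 0.57 in males and the difference 2.00 in females, for *Itga4* 0.01 and 0.56, and for *Vcam1* -0.03 and 0.59. Control 3, the only female control, was the lowest mouse for these 3 genes in CPM. The choroid plexus score was 6.21 and 6.61 in the male controls and 2.48 in control 3. Sex, choroid plexus content and a trait of that single mouse therefore cannot be told apart among the controls. The interaction of genotype with sex had the smallest unadjusted p for *Itga4* (0.00296), *Vcam1* (0.0121) and *Icam1* (0.0314) in edgeR's fit over the 6 mice. After adjustment over all genes padj was at least 0.483 (edgeR) for every one of the 10 genes, with 1 female per genotype.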

How the data were processed

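Cerebellar poly A RNA of 3 Pcp2-cre and 3 control mice was sequenced as paired reads. Per the study's methods, reads were trimmed and placed on GRCm39 with STAR, and genes were counted on a Gencode table. The study's methods and the submitters' processing notes both name featureCounts and StringTie. Versions, Gencode release, strand setting and the treatment of reads shared by genes are not given in the sources used here. The authors deposited raw counts per gene and, separately, FPKM values, with no pooling of mice. Genotype and mouse number were taken from the sample titles.

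The main test of the counts was the quasi-likelihood test of edgeR 4.0.16 under R 4.3.3, after filterByExpr and TMM and without covariates, with Benjamini-Hochberg adjustment over 16961 genes and the study's thresholds of 0.05 and 0.5. CPM was scaled by TMM. Within-mouse ratios used counts plus 0.5 and two-sided exact permutation tests. FPKM values were described, and as an alternative tested with limma 3.58.1 after adding 1 or 0.1 and taking log2, over genes with a mean of at least 0.1 FPKM or without that filter. DESeq2 1.42.0 was the other tool. The scripts were tested on simulated counts. Libraries of a genotype differed beyond counting error (chi-square per gene 1.37 to 3.20), so none was taken as a duplicate. Gene positions and exon overlaps came from Gencode M39, and promoters from RefSeq. The genes, lists, motifs and tests were chosen with earlier results of these data known. All 10 genes are named, as are the called genes of each list and, for each called gene of the 10, the 3 with the nearest pattern. Other listed genes are named for a floor, a role or an adjusted p, and were chosen after their values were seen.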

Additional observations from a re-analysis of the deposited data

How the results depend on the processing

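The 3 calls were 1 (*Itgb2*) with at least 10 counts required in every mouse, which removes *Itgam* and *Icam1*, and 2 to 3 when each mouse was left out. *Itgb2* and *Itgam* were called in each fit that tested them, with log2 fold changes of 1.35 to 2.67 and 0.94 to 2.06, and *Icam1* in 5 of 16. The low ends, 1.35 and 0.94, were those of limma on log2(FPKM + 1), where the added 1 exceeds every control value of *Itgb2* and *Itgam* and shrinks the fold. With 0.1 added the log2 fold changes of *Itgb2* and *Itgam* were 2.35 and 1.51. For *Itgav* the log2 fold change was 0.01 without control 3, ran from -0.08 to 0.01 with each mouse left out and was 0.04 in males, and for *Vcam1* -0.03 in males. The *Itga4* to *Itgb1* difference ran from -0.13 (without control 3) to 0.16 with each mouse left out, and was -0.05 without Pcp2-cre mouse 2.

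Of the other integrin subunits, 0 were called higher at 10 counts in every mouse, and 1 was called lower without the filter, in males or at any fold change, with 0 to 1 when each mouse was left out (1 without control 3). Of the other ligands and selectins, 0 were called with log2(FPKM + 1), with or without the filter, 1 with log2(FPKM + 0.1), and 1 to 2 with each mouse left out (1 without Pcp2-cre mouse 2 or 3). Signalling genes called higher numbered 0 at 10 counts in every mouse and 5 at any fold change. Matrix ligands called higher numbered 5 at any fold change, and those called lower 2 in males or at any fold change and 1 to 2 with each mouse left out (2 without control 3). Over all genes, 1312 passed at any fold change (507 higher, 805 lower), 343 with limma on log2(FPKM + 1) (185 lower) and 221 without its filter (105 higher, 116 lower), against 537 (233 and 304). DESeq2 called 146 higher. The causes were not tested.

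With the mouse number as a replicate block 2 of the 10 genes were called, *Icam1* having padj = 0.0649 (edgeR). Deviations of same-numbered mice correlated at 0.065, 0.078 and 0.225 over genes, and Pcp2-cre mouse 2 correlated better with control 1 (0.096) than with its own number, so the numbers were not taken as pairs. At 6 to 25 counts per mouse, *Icam1*, *Itgal* and control *Itgam* and *Itgb2* are limited by their low counts. For *Itgam*, the part of reads in exons shared with *Gm49368* was not tested.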
